A study of Mus musculus with 15 samples.

Results

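10 microtubule genes were followed in cultured mouse oligodendrocyte-lineage cells with and without the transcription factor SRF: the alpha-tubulins Tuba1a and Tuba1b, the beta-tubulins Tubb2a, Tubb2b, Tubb3, Tubb4a and Tubb5, and the microtubule regulators Tppp, Map1b and Stmn1. The members were matched by gene symbol, and all 10 of 10 were found among the 45706 genes listed for each of 15 polyA RNA libraries. Cells came from mice whose Srf alleles are both floxed, that is, flanked by sites at which the Cre recombinase removes DNA, and all 4 groups carry these alleles. Oligodendrocytes (OLs) were differentiated from immunopanned oligodendrocyte precursor cells (OPCs), infected on culture day 6 and frozen on day 3 of differentiation. There were 4 SRF-KO OL libraries, from cells given a lentivirus encoding Cre and GFP, and 4 control OL libraries, from cells given a GFP lentivirus. Dividing OPCs were infected on culture day 3 and frozen 48 hours later. There were 3 SRF-KO OPC libraries, from cells given an adeno-associated virus (AAV) encoding Cre, and 4 control OPC libraries, from cells given an AAV encoding a deleted Cre. The treatment tag of the SRF-KO OLs names the Cre lentivirus but closes with the word "control", so groups follow the titles. The design text of the series names Olig2-Cre and mesenchymal stem cells, and no sample label does. Cre was not given to cells with intact Srf alleles, so an effect of Cre itself and an effect of SRF loss cannot be told apart. The labels do not say whether replicates were separate cultures, so p-values measure the spread between these libraries, which may be technical.

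Microtubules are hollow filaments built from alpha- and beta-tubulin dimers, and vertebrates carry several genes, called isotypes, for each subunit. Oligodendrocytes extend long branched processes before they wrap axons, and microtubules serve in them as tracks for the transport of vesicles and of mRNAs such as that of myelin basic protein. TUBB4A is abundant in myelinating oligodendrocytes, and mutations in its gene cause a human hypomyelinating leukodystrophy. SRF is known mainly as a regulator of actin cytoskeleton genes and of immediate-early genes.

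Libraries held 4303739 to 11721394 expected counts in the SRF-KO OL group, 7188698 to 13139258 in the control OL group, 9074812 to 15125229 in the SRF-KO OPC group and 8964310 to 16026511 in the control OPC group. Srf itself had 2.06 to 4.34 normalised CPM in SRF-KO OLs against 7.13 to 9.34 in control OLs. In the precursors it had 0.20 to 0.22 in SRF-KO OPCs against 5.57 to 9.67 in control OPCs. CPM are counts per library total on a common scale, normalised within each stage by TMM (trimmed mean of M-values) factors. A library stood apart in each stage: SRF-KO OL replicate 4 scored 80.5 on the first principal component of its stage, where the others lay between -18.8 and 0.45, and SRF-KO OPC replicate 2 scored 47.6, where the others lay between -23.0 and 6.01. Mitochondrially encoded genes took 14.2% of counts in SRF-KO OL replicate 4 and 9.08% to 11.6% in the other OL libraries. Summed over 8 oligodendrocyte marker genes, control OLs had 18055 to 34796 normalised CPM and control OPCs 401 to 435, with Mog at 0 in every OPC library. Astrocyte markers also differed by stage: 5 of them summed to 15197 to 32072 CPM in control OLs and 220 to 263 in control OPCs. Gfap alone had 12256 to 28228 CPM in control OLs. Aqp4, Slc1a2 and Gja1 were also higher in control OLs. Aldh1l1 was lower there, at 19.9 to 26.1 CPM against 43.9 to 52.8 in control OPCs. The part of astrocyte-like expression in the differences between stages was not tested. The 8 neuron markers summed to 171 to 294 CPM in SRF-KO OLs, 175 to 238 in control OLs, 328 to 398 in SRF-KO OPCs and 281 to 327 in control OPCs. The most abundant was Gap43, with 157 to 270, 159 to 226, 293 to 357 and 243 to 289 CPM in the same groups. Rbfox3 was at most 1.61 CPM in any library. The OL and OPC tables were made differently. By their listed gene lengths the OL tables count reads over the whole gene body, introns included, and the OPC tables over spliced transcripts. Tubb4a was listed at 7717 bases in OL tables and 2228 bases in OPC tables, and Map1b at 95139 and 11852 bases. Every comparison of OLs with OPCs therefore compares quantification as well as cells, and also the virus and the day of infection. The part of each in a difference was not tested.

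All 10 members are protein-coding, with coordinates given on GRCm38. Tuba1a (ENSMUSG00000072235) lies at chr15:98949837-98953703 and Tuba1b (ENSMUSG00000023004) at chr15:98931425-98934565, both on the minus strand. Tubb2a (ENSMUSG00000058672) at chr13:34074274-34078007 and Tubb2b (ENSMUSG00000045136) at chr13:34126748-34130466 are neighbours, also on the minus strand. Tubb4a (ENSMUSG00000062591) lies at chr17:57080066-57087782 and Tubb5 (ENSMUSG00000001525) at chr17:35833921-35838306, on the minus strand, and Tubb3 (ENSMUSG00000062380) at chr8:123411424-123422015 on the plus strand. Of the regulators, Tppp (ENSMUSG00000021573) lies at chr13:74009407-74035753 on the plus strand, Map1b (ENSMUSG00000052727) at chr13:99421446-99516540 on the minus strand and Stmn1 (ENSMUSG00000028832) at chr4:134468320-134473843 on the plus strand.

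Tubulin isotypes have nearly the same body and differ most at the carboxy-terminal tail, which projects from the microtubule surface and is where enzymes add glutamate and glycine chains. The last 60 coding bases of the beta genes, stop codon included, are shown because they are where the isotypes can best be told apart. Capitals mark letters that differ from Tubb5 in a pairwise alignment of these last 60 bases, with gaps allowed. Inserted letters count as differing, and Tubb5 letters that face a gap are not counted.
Tubb5: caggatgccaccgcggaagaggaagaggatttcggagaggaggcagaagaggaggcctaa
Tubb4a: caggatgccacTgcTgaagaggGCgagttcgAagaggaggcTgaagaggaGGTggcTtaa
Tubb2a: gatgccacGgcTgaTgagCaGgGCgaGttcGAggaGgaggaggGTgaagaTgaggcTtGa
Tubb2b: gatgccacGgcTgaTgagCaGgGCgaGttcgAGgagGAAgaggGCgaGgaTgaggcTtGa
Tubb3: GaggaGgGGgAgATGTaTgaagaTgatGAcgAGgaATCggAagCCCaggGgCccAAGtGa
Of these 60 bases, Tubb4a differed from Tubb5 at 10, Tubb2a at 16, Tubb2b at 19 and Tubb3 at 28. Over the whole coding sequence Tuba1a and Tuba1b were 98.3% identical and Tubb2a and Tubb2b 96.5%, while Tubb4a was 83.9% identical to Tubb5 and 83.2% to Tubb4b. These identities bear on the counts, since reads were 63 bases long. Of all 63-base windows of the spliced transcript, 71.2% in Tuba1b, 59.9% in Tuba1a, 42.6% in Tubb2a, 33.1% in Stmn1 and 31.1% in Tubb2b occurred exactly in another listed gene. None did in Tubb3, Tubb4a, Tubb5, Tppp or Map1b, introns not counted. The split of reads between Tuba1a and Tuba1b and between Tubb2a and Tubb2b is thus uncertain, and the fits were repeated with these genes summed. Tubb3 lies wholly inside the gene model Gm20388 on the same strand, which had up to 160 CPM in OLs and 55.4 in OPCs, so where counting covers introns, as in the OL tables, reads of the pair cannot be told apart and the OL level of Tubb3 is uncertain. Tppp overlaps the pseudogene Gm6263 on the opposite strand over 1342 bases, and the library protocol does not mark strand. Gm6263 had at most 13.6 CPM.

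Promoters of Tubb4a and Tuba1a are shown because the levels of these members ran together over the libraries (Pearson r = 0.886, described further on). The sequences run from 250 bases before to 50 after the start in the RefSeq table (GRCm38.p6, minus strand), Tubb4a at chr17:57087551-57087850 and Tuba1a at chr15:98953452-98953751. Capitals mark TATAA and CCAAT.
Tubb4a: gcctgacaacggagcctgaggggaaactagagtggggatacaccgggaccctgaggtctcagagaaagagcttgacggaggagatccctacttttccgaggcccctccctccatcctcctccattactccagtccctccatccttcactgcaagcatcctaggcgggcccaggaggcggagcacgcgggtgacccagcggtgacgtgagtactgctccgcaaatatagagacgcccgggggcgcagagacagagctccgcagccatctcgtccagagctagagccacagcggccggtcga
Tuba1a: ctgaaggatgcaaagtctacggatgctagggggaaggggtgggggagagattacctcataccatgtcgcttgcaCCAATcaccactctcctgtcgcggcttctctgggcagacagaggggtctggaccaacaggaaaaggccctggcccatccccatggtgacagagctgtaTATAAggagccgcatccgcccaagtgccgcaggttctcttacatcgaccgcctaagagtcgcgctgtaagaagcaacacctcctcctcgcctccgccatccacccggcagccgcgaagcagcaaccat
The table held 8 of the 10 members, not Tubb2b and Stmn1. The CArG box, the motif that SRF binds, had no match on either strand in any of the 8 windows. Of 32851 promoters 1.63% had at least 1 match, and Srf's own promoter had 2 matches. At so low a share, no match in 8 windows is the usual outcome and does not set these genes apart. Only exact matches in this window were searched, and SRF binding was not tested. TATAA, searched on both strands, was present in Tuba1a, Tubb2a, Tubb3 and Map1b and in 24.9% of all promoters. CCAAT, also searched on both strands, was present in Tuba1a, Tubb3 and Tubb5 and in 37.4% of all promoters. Tubb4a, Tuba1b and Tppp held none of the 3 motifs in this window.

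Isotype use was read as the share of each gene in the summed TPM (an abundance per transcript length) of its subunit family. In OLs the alpha pool was almost wholly Tuba1a, an alpha-tubulin abundant in postmitotic neurons. It took 95.9% ± 0.34 of alpha TPM in control OLs and 70.6% ± 0.64 in control OPCs (SD, n = 4 each). Tuba1b, an alpha-tubulin of most cell types, took 3.59% ± 0.32 in control OLs and 28.5% ± 0.59 in control OPCs. The beta pool differed more widely. Control OPCs used mainly Tubb5 at 31.3% ± 1.45, Tubb2b at 23.1% ± 1.89 and Tubb4b at 18.6% ± 0.86. In control OLs Tubb5 stood at 11.7% ± 1.25 and Tubb2b at 11.6% ± 0.89, and Tubb4b led with 36.9% ± 1.69. Tubb6, a further beta-tubulin of the pool, took 0.26% ± 0.071 in control OLs and 9.75% ± 0.65 in control OPCs. Tubb3, the neuronal class III isotype, was a small part of the pool at either stage, at 1.01% ± 0.15 in control OLs and 0.93% ± 0.061 in control OPCs.

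The largest difference in share, in percentage points, was that of Tubb4a. Its share of beta TPM was 37.7%, 28.9%, 28.1% and 29.0% in the 4 control OL libraries, against 2.83%, 2.58%, 2.82% and 2.57% in the 4 control OPC libraries. Every OL library was far above every OPC library. The means were 30.9% ± 4.53 and 2.70% ± 0.14, a difference of 28.2 percentage points with a two-sided exact permutation p = 0.0286, the smallest that 4 against 4 allows (0.0429 after Benjamini-Hochberg adjustment over the 3 comparisons of this share). Dividing OL counts by the spliced lengths of the OPC tables gave Tubb4a 46.4% ± 5.31 and Tubb4b 26.3% ± 1.86 in control OLs, so which of them led the OL pool depends on the length used. On the same lengths Tubb5 was at 6.92% ± 0.82, Tubb3 at 2.55% ± 0.43 and Tubb6 at 0.80% ± 0.23 in control OLs.

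**Figure D1:**
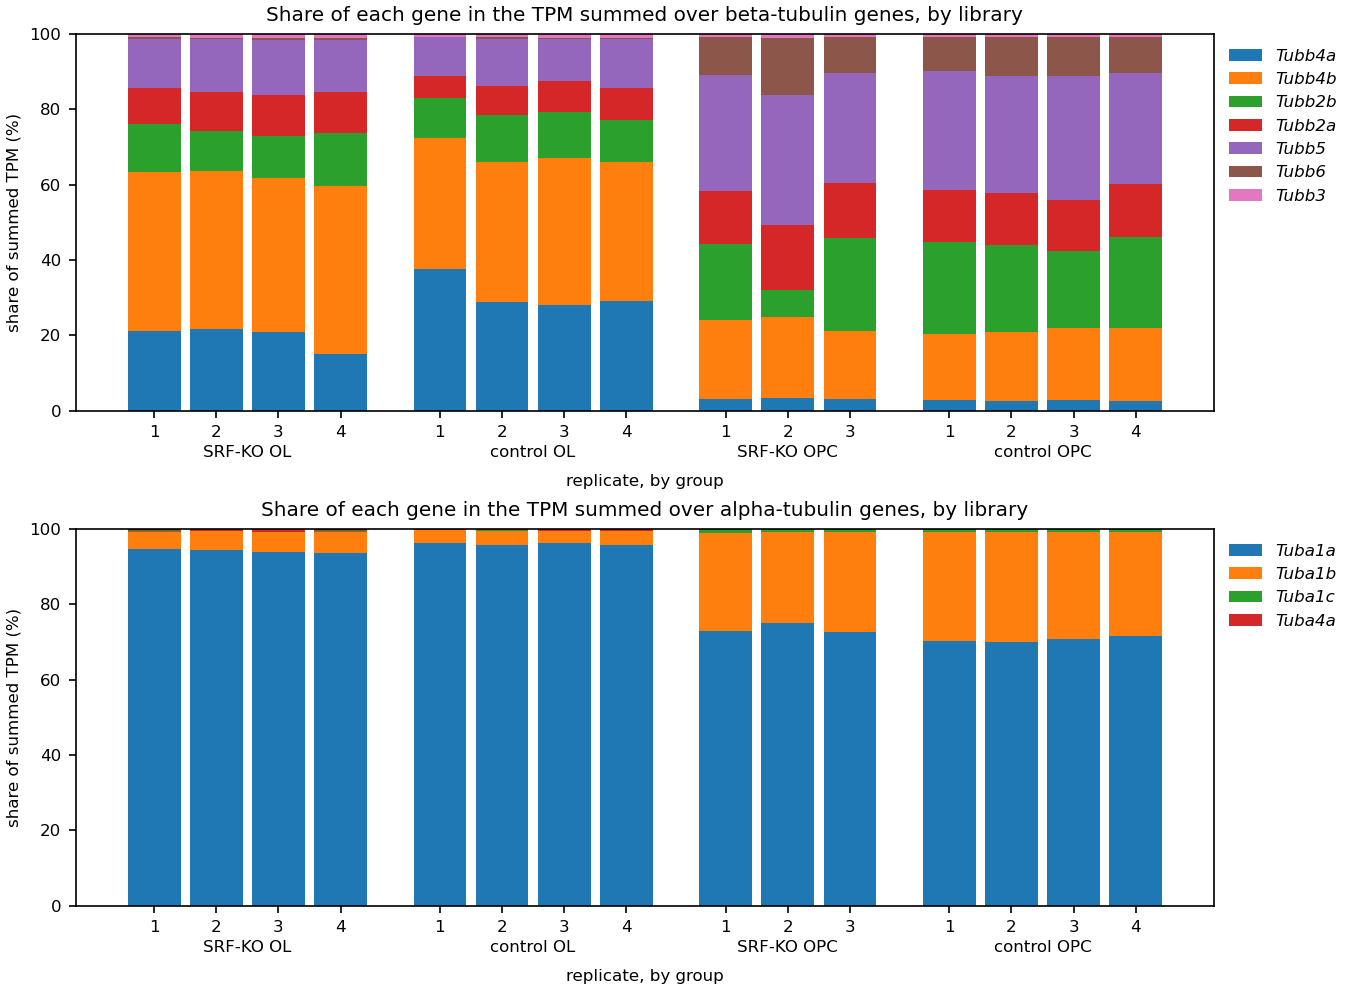
Stacked bars give each gene's share (%) of the TPM summed over beta-tubulin genes (top) and alpha-tubulin genes (bottom), 1 bar per library, grouped as SRF-KO OL, control OL, SRF-KO OPC and control OPC. Tubb4a takes 15.02% to 21.8% of beta TPM in SRF-KO OLs, 28.1% to 37.7% in control OLs and 2.57% to 3.39% in all OPC libraries, and Tuba1a dominates the alpha pool of OLs.

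In levels, 9 of the 10 members differed between control OLs and control OPCs at adjusted p below 0.05 in edgeR's quasi-likelihood test, but so did 79.7% of the 15027 genes tested, with 42.5% higher in OLs and 37.1% lower. The fold changes come from a joint fit of the controls with its own TMM factors, while the CPM were scaled within each stage. Ratios of the CPM given here therefore need not match the fold changes. Tubb4a had 3169 ± 1197 normalised CPM in control OLs and 106 ± 5.16 in control OPCs, and a log2 fold change of 5.14 (SE 0.24). Tppp, a tubulin polymerisation-promoting protein that nucleates microtubules at Golgi outposts in oligodendrocytes, had 136 ± 15.2 and 11.6 ± 1.48 CPM (log2 3.78, SE 0.13). Map1b, a microtubule-associated protein of growing processes, had 1230 ± 214 and 134 ± 12.2 CPM (log2 3.44, SE 0.15). Tubb3 and Tuba1a were also higher in OLs in CPM, with log2 fold changes of 2.41 and 2.05. The listed length of Tubb3 was 10592 bases for OLs and 1868 for OPCs. In TPM its groups overlapped, at 24.03 to 33.85 in control OLs and 21.51 to 27.87 in control OPCs. Map1b had 18.01 to 45.18 and 13.2 to 17.88 TPM. In TPM, Tubb4a (740 to 1104 and 70.7 to 77.3) and Tppp (13.2 to 35.5 and 2.93 to 4.61) stayed higher in OLs. So did Tuba1a (7099 to 8891 and 3189 to 4001). The genes higher in OPCs were Tuba1b, with a log2 fold change of -1.66, Tubb5 with -1.19, Stmn1 with -1.48 and Tubb2b with -0.39. Stmn1 encodes stathmin, which binds free tubulin dimers and destabilises microtubules, and it had 219 ± 36.4 CPM in control OLs and 721 ± 49.3 in control OPCs. Over the same groups, the summed level of 6 genes of dividing cells was 104 to 136 CPM in control OLs and 2173 to 2243 in control OPCs, and its part in these differences was not tested.

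The near-identical pair Tubb2a and Tubb2b differed least between stages. The adjusted p of Tubb2b was 0.0270 in edgeR. That call was lost when any 1 of control OPC replicates 1, 2 or 4 or control OL replicates 3 or 4 was left out (adjusted p 0.0560 to 0.0708). Tubb2a was at 0.21, which did not pass (adjusted p = 0.0877 in edgeR), and at -0.15 with library totals in place of TMM factors. It did pass in DESeq2 (0.28, adjusted p = 0.0188) and in edgeR without control OL replicate 4 (0.30, adjusted p = 0.00798). Library totals also moved the median of all genes, to -0.24 against 0.10. Tubb2a and Tubb2b summed gave -0.17 (adjusted p = 0.253 in edgeR), and Tuba1a, Tuba1b and Tuba1c summed gave 1.57.

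**Figure D2:**
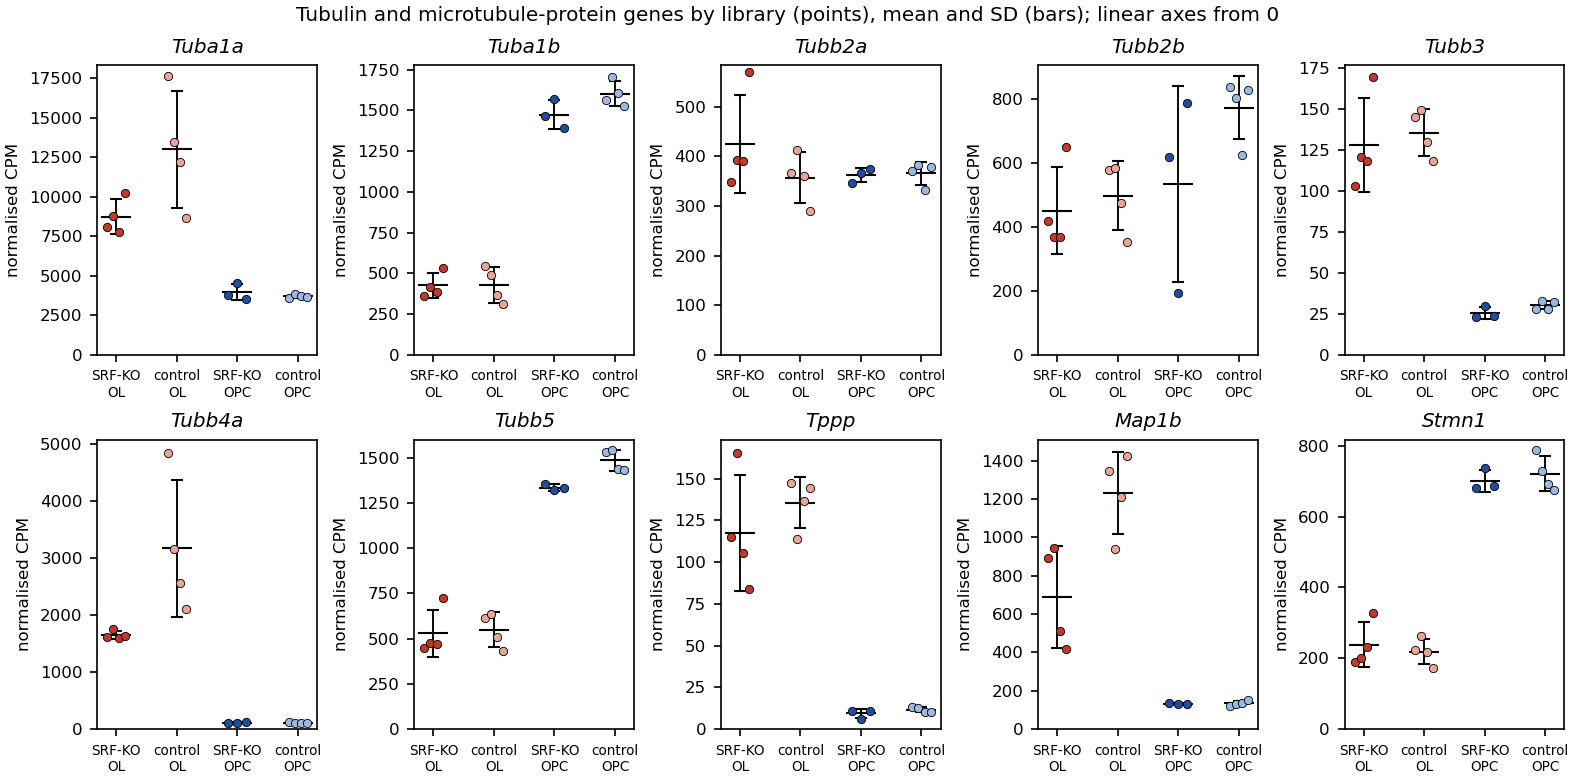
Normalised CPM (linear axes from 0, TMM within each stage) of the 10 genes, 1 panel per gene, with 1 point per library and bars for the mean and SD in SRF-KO OL, control OL, SRF-KO OPC and control OPC libraries (n = 4, 4, 3 and 4). In OLs Tubb4a is the gene whose SRF-KO libraries (1600 to 1754) all lie below the controls (2110 to 4844), and in OPCs Tubb5 is the gene whose groups do not overlap.

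SRF-KO OLs were set against control OLs to ask whether differentiating cells given Cre carry different levels of these genes. Tubb4a was the member with the clearest difference, and Map1b and Tuba1a also had lower means in SRF-KO OLs. None of the 10 members passed an adjusted p of 0.05 in edgeR, where 0.296% of 15193 genes did. At an unadjusted p below 0.05 there were 3 members, all lower in SRF-KO OLs, against 5.73% of all genes lower and 11.6% in either direction. DESeq2 called 1 member, Tubb4a, and 299 of all 15193 genes.

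Tubb4a had 1611, 1754, 1600 and 1625 normalised CPM in SRF-KO OLs, against 4844, 3162, 2559 and 2110 in control OLs. The SRF-KO libraries lay within a narrow band below every control, while the controls spread widely. It was the only member whose OL groups did not overlap, as was the case for 8.09% of all genes tested and, with SRF-KO lower, for 3.9%. The log2 fold change was -0.94 (SE 0.25), with an unadjusted p of 0.00256 and an adjusted p of 0.176 in edgeR. DESeq2 gave -0.95 with an adjusted p of 0.00647. Without SRF-KO OL replicate 4, the library that stood apart, edgeR called Tubb4a at -0.96 (adjusted p = 0.0442). That fit called 636 of 15434 genes. Over all 8 libraries left out in turn, the edgeR estimate ran from -1.10 to -0.67 and its adjusted p from 0.0442 to 0.456, the highest without control OL replicate 1.

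The share of Tubb4a in the beta pool showed the same direction on a measure that does not depend on library scaling. This share is built from the same Tubb4a reads as the levels above, so it is not separate evidence. It was 21.05%, 21.8%, 20.9% and 15.02% in SRF-KO OLs, against 37.7%, 28.9%, 28.1% and 29.0% in control OLs, with no overlap. The means were 19.7% ± 3.15 and 30.9% ± 4.53 (SD, n = 4 each), a difference of -11.2 percentage points with a two-sided exact permutation p = 0.0286, the smallest possible here (0.0429 adjusted over 3). With spliced lengths the shares were 32.3% ± 4.65 in SRF-KO OLs and 46.4% ± 5.31 in control OLs. The shares of the other isotypes are given as levels with no test, and they depend on that of Tubb4a, being parts of the same pool. Those of Tubb4b, Tubb5 and Tubb2a also did not overlap between the OL groups, while those of Tubb2b, Tubb3 and Tubb6 did. Tubb4b was at 42.3% ± 1.59 in SRF-KO OLs and 36.9% ± 1.69 in control OLs, Tubb5 at 13.9% ± 0.74 and 11.7% ± 1.25, and Tubb2a at 10.4% ± 0.65 and 7.65% ± 1.13. Summed beta TPM overlapped between the groups, at 2782 to 3033 in SRF-KO OLs and 2608 to 2931 in control OLs.

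Tuba1a had 8111, 8788, 7795 and 10268 normalised CPM in SRF-KO OLs, against 17616, 13487, 12213 and 8670 in control OLs. The groups overlapped, because control replicate 4 lay below 2 SRF-KO libraries. The log2 fold change was -0.57 (SE 0.24, adjusted p = 0.389 in edgeR), and -0.55 for Tuba1a, Tuba1b and Tuba1c summed (adjusted p = 0.409). Its share of the alpha pool was 93.7% to 94.5% in SRF-KO OLs and 95.6% to 96.2% in control OLs. Tuba1b took 4.75% to 5.57% in SRF-KO OLs and 3.29% to 3.90% in control OLs.

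Map1b had 893, 943, 510 and 415 normalised CPM in SRF-KO OLs, against 1347, 939, 1207 and 1426 in control OLs. SRF-KO replicates 3 and 4, the shallowest libraries, were the lowest, and control replicate 2 was level with SRF-KO replicate 2. The log2 fold change was -0.83 (SE 0.27, adjusted p = 0.269 in edgeR), and -0.68 without SRF-KO OL replicate 4 (adjusted p = 0.0951). Map1b is the longest member and its OL counts include introns, and the part of this in its difference was not tested.

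The other 7 members had log2 fold changes between -0.21 and 0.25 in OLs, with adjusted p of at least 0.676 in edgeR. Tppp had 83.8 to 166 CPM in SRF-KO OLs and 114 to 147 in control OLs, and a log2 fold change of -0.21, which was 0.0086 with library totals. Tubb2b at -0.14, Tubb3 at -0.09, Tubb5 at -0.05 and Tuba1b at -0.01 likewise had positive estimates with library totals, a scaling that moved the median of all genes to 0.24 against 0.02. Tubb2a stood at 0.25 and Stmn1 at 0.12, and Stmn1 at -0.10 without SRF-KO OL replicate 4.

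**Figure D3:**
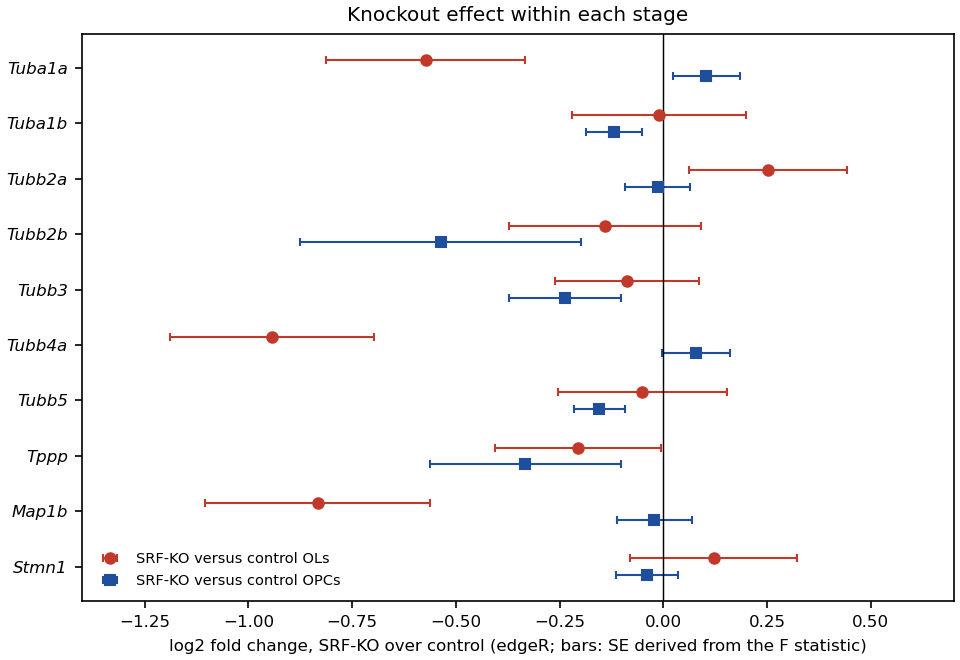
Log2 fold changes (x axis, SRF-KO over control, edgeR) of the 10 genes (y axis) in OLs (red circles) and OPCs (blue squares), with bars of 1 SE. The OL estimates of Tubb4a (-0.94), Map1b (-0.83) and Tuba1a (-0.57) lie furthest left, and no estimate passed the adjusted threshold.

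Levels of other marker genes moved with Tubb4a. The summed level of the 8 oligodendrocyte markers was 12880 to 17921 CPM in SRF-KO OLs and 18055 to 34796 in control OLs, without overlap. As a percentage of that sum, Tubb4a was 11.5%, 9.79%, 9.91% and 12.6% in SRF-KO OLs and 13.9%, 12.2%, 11.6% and 11.7% in control OLs. On this measure the groups overlapped through SRF-KO replicate 4. The other 3 SRF-KO libraries lay below every control, though SRF-KO replicate 1 (11.505%) was nearly level with control replicate 3 (11.552%). Tuba1a, on the same measure, was 57.9%, 49.0%, 48.3% and 79.7% in SRF-KO OLs and 50.6%, 51.8%, 55.1% and 48.0% in control OLs, with overlap. The 5 astrocyte markers, of which Gfap was the most abundant, summed to 7439 to 11927 CPM in SRF-KO OLs and 15197 to 32072 in control OLs. Of these only Gfap had groups that did not overlap, at 4778 to 8977 against 12256 to 28228 CPM. Aqp4, Aldh1l1, Slc1a2 and Gja1 overlapped, so the sum mainly reflects Gfap. The 6 dividing-cell markers summed to 159 to 173 CPM in SRF-KO OLs and 104 to 136 in control OLs. The sum of the 6 OPC markers overlapped at 1290 to 1489 and 1379 to 1437, but single markers went in different directions. Without overlap, Pdgfra (54.5 to 74.4 against 49.4 to 53.4 CPM) and Ptprz1 (572 to 582 against 435 to 519) were higher in SRF-KO OLs. C1ql1 was lower, at 62.6 to 82.2 against 100 to 121 CPM. Cspg4, Lhfpl3 and Gpr17 overlapped. The part of these differences in the values of Tubb4a, Tuba1a and Map1b was not tested. In such bulk libraries fewer cells of a type and less RNA per cell cannot be told apart.

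**Figure D4:**
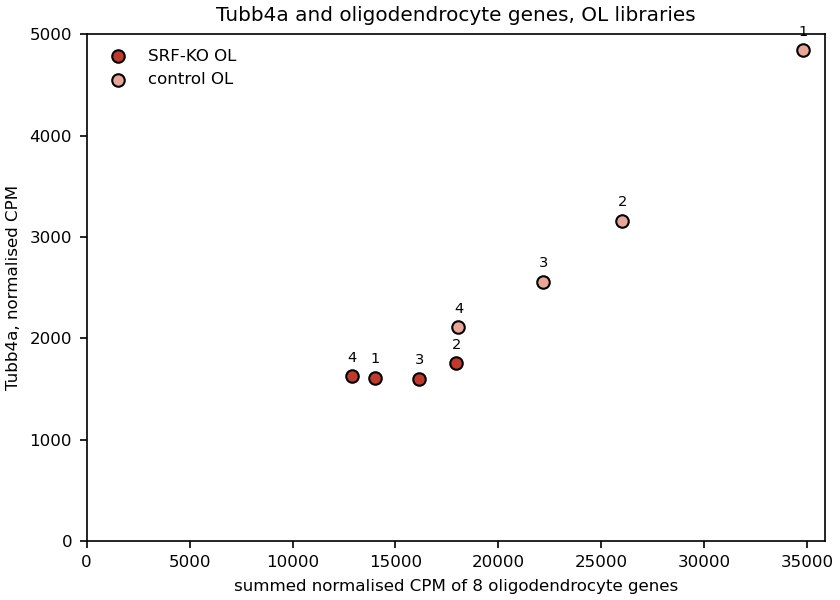
Normalised CPM of Tubb4a (y axis) against the summed normalised CPM of 8 oligodendrocyte marker genes (x axis) in the 4 SRF-KO and 4 control OL libraries, numbered by replicate. The SRF-KO libraries lie at the low end of both Tubb4a (1600 to 1754) and the marker sum (12880 to 17921).

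The same question was asked of dividing precursors, in which the listed Srf level was closer to 0. None of the 10 members passed an adjusted p of 0.05 in edgeR, where 0.0678% of 13271 genes did, and DESeq2 called none. At an unadjusted p below 0.05 there was 1 member, Tubb5, against 11.9% of all genes. Groups that did not overlap were found for 1 member, again Tubb5, and for 12.2% of all genes. Tubb5, the broadly expressed beta-tubulin of dividing cells, had 1355, 1320 and 1333 normalised CPM in SRF-KO OPCs, against 1532, 1542, 1437 and 1433 in control OPCs. All 3 SRF-KO libraries lay below all 4 controls by a small margin, as did 6.25% of all genes. The log2 fold change was -0.15 (SE 0.061), with an adjusted p of 0.365 in edgeR. Beside it, the 6 dividing-cell markers summed to 1959 to 2135 CPM in SRF-KO OPCs and 2173 to 2243 in control OPCs, and their part was not tested.

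Tubb4a in OPCs had 113, 107 and 118 CPM in SRF-KO libraries against 114, 106, 102 and 104 in controls (log2 fold change 0.08, SE 0.082), where the 8 oligodendrocyte markers summed to 445 to 481 and 401 to 435 CPM. Its share of the beta pool was 3.09%, 3.39% and 3.09% in SRF-KO OPCs, against 2.83%, 2.58%, 2.82% and 2.57% in control OPCs. The groups did not overlap, but 3 against 4 allows no two-sided exact permutation p below 0.0571, which is the value reached. Tubb2b, a beta-tubulin of neural progenitors and young neurons, had 619, 192 and 789 CPM in SRF-KO OPCs, against 836, 802, 626 and 827 in control OPCs. Its low value was that of SRF-KO OPC replicate 2, the library that stood apart, and the log2 fold change was -0.54 (SE 0.34, adjusted p = 0.553 in edgeR) with that library and -0.13 without it. Tppp followed the same library, with 10.8, 6.15 and 11.1 CPM in SRF-KO OPCs against 12.9, 12.9, 10.4 and 10.2 in control OPCs, and log2 fold changes of -0.33 with it and -0.09 without it. Tuba1a (0.10), Tuba1b (-0.12), Tubb3 (-0.24), Stmn1 (-0.04), Map1b (-0.02) and Tubb2a (-0.01, and 0.0047 with library totals) had adjusted p of at least 0.506 in edgeR, and without SRF-KO OPC replicate 2 Tuba1a stood at -0.0092 and Tubb3 at -0.37.

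Whether the knockout effect differed between stages was tested as an interaction over all 15 libraries, with SRF-KO over control in OLs set against the same in OPCs. The stages also differed in the virus, the control virus, the time of infection and freezing, and quantification. An effect of these and an effect of stage cannot be told apart. None of the 10 members passed in edgeR at an adjusted p of 0.05, where 0.112% of 16135 genes did. The 3 members with an unadjusted p below 0.05 were Tubb4a at -1.04 (SE 0.27, adjusted p = 0.163), Tuba1a at -0.69 (adjusted p = 0.394) and Map1b at -0.83 (adjusted p = 0.422), all in edgeR and against 9.25% of all genes. DESeq2 called Tubb4a at -1.04 with an adjusted p of 0.0234, and 169 of all 16135 genes. In edgeR, Tubb4a was also called without control OL replicate 4 (-1.18, adjusted p = 0.0409), where 42 of 15984 genes were called. Its adjusted p in edgeR ran up to 0.297 with other libraries left out.

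A wider set of 123 tubulin, folding, modifying, binding, plus-end, severing, nucleation and motor genes was examined in the same fits. None was called in edgeR in either stage, of 118 tested in OLs and 115 in OPCs. At an unadjusted p below 0.05, 3 were higher and 8 lower in SRF-KO OLs, where 5.84% of all genes were higher and 5.73% lower. In SRF-KO OPCs 8 were higher and 11 lower, where 5.57% of all genes were higher and 6.33% lower. Their median log2 fold change was -0.0084 in OLs, against 0.024 over all genes tested, and -0.011 in OPCs, against -0.0013 over all. The 21 genes of tubulin folding (cofactors, the CCT chaperonin and prefoldin) had a median of 0.077 in OLs and -0.040 in OPCs. The 14 plus-end genes had a median of -0.16 in OLs and 0.0029 in OPCs. In control OLs against control OPCs, 16 of the 21 folding genes were lower and 2 higher at adjusted p below 0.05 in edgeR. Of the 14 plus-end genes, 9 were higher and 3 lower. Over all genes tested, 37.1% were lower and 42.5% higher.

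By abundance, the genes named from this set in OLs were Tubb4b (log2 fold change -0.02), the end-binding protein gene Mapre1 (-0.14) and Sirt2. Sirt2, a tubulin deacetylase abundant in myelin, had 724, 810, 762 and 856 CPM in SRF-KO OLs, against 2202, 1543, 1266 and 994 in control OLs. The groups did not overlap, and the log2 fold change of -0.93 (SE 0.23, adjusted p = 0.167 in edgeR) was close in size to that of Tubb4a. In OPCs the most abundant were the chaperonin subunits Cct5 and Cct7, each at -0.04, and Tcp1. Tcp1 had 690, 676 and 682 CPM in SRF-KO OPCs against 796, 816, 872 and 825 in control OPCs, with a log2 fold change of -0.28 (SE 0.065, adjusted p = 0.201 in edgeR).

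The course of members over the 15 libraries, as log2 CPM centred on the mean of each stage, was compared with that of 5285 expressed genes. These correlations describe libraries that share depth and composition and carry no test. Tubb4a ran most closely with Bcas1 (Pearson r = 0.955), Cnp (0.951) and Ckb (0.949). Cnp is 1 of the 8 oligodendrocyte markers summed above, and Bcas1 is known as a marker of newly forming, early myelinating oligodendrocytes. Map1b ran with AU040320 (0.958), Usp22 (0.922) and Gas7 (0.913), and Tubb5 with Tomm40 (0.973), Skp1a (0.956) and the translation factor gene Eif5a (0.955). Among the members themselves, Tubb4a went with Tuba1a (0.886), Tuba1b with Tubb5 (0.893) and Tubb2a with Stmn1 (0.900), while Map1b and Tubb2a ran in opposite directions (-0.770).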

How the data were processed

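Deposited RSEM gene tables of 15 libraries were used. PolyA RNA was amplified by Smart-seq2 and sequenced as single 63-base reads, per the labels' protocols. The authors used bcl2fastq, STAR and RSEM, with GRCm38 and Rnor_6.0 as builds and no versions, per the submitters' processing notes. Each table gives the authors' expected count (reads estimated to come from a gene, with shared reads divided among genes) for 45706 genes, of which 45143 matched symbols. The deposited TPM values are those counts per effective length, scaled to a fixed total, and the deposited FPKM values were not used. The listed lengths were checked against GENCODE M21.

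After rounding, the counts were fitted in edgeR 4.0.16 under R 4.3.3 (filterByExpr, TMM, quasi-likelihood F-test, Benjamini-Hochberg adjustment over all genes tested, threshold 0.05). Knockout fits used 1 stage, the stage fit the controls, and the interaction all libraries. The SE was derived from the test, as the size of the log2 fold change over the root of F. Log2 CPM carried a prior count of 2. DESeq2 1.42.0, library totals, no filter, a replicate block, summed near-identical genes and leaving out each library were alternatives. Shares were tested by exact permutation. Scripts were tested on simulated counts. All 10 members, Srf and the other tubulins were always named, with the 3 most abundant genes of the wider lists where fewer than 3 passed. Genes alike in course were taken for the 3 members with the smallest p. Members and lists were chosen with earlier results of these data known.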

Additional observations from a re-analysis of the deposited data

Results flagged for a closer look

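Within groups of 4 libraries, 33 sets of values of these genes were examined for a library far from the other 3, and 5 were found. Chance alone would flag about 1 group in 20. SRF-KO OL replicate 4, which stood apart over all genes, had the lowest Tubb4a share of beta-tubulin TPM, 15.02%, where the other SRF-KO OLs had 20.9% to 21.8%, and the highest Tubb5 level, 723 normalised CPM, where they had 449 to 476. SRF-KO OL replicate 2 had 1754 normalised CPM of Tubb4a, and the others of its group 1600 to 1625, a small difference in a tight group. Control OL replicate 1 had a Tubb4a share of 37.7%, and the other control OLs 28.1% to 29.0%. Control OPC replicate 3 had 626 normalised CPM of Tubb2b, and the other control OPCs 802 to 836.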

How the results depend on the processing

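Of the repeats of single-member fits under another setting, 518 kept direction and side of the threshold, 34 changed direction, 7 newly passed and 5 no longer passed. In OLs the knockout direction of Tubb4a, Map1b and Tuba1a was negative under every alternative run. With library totals the knockout estimates in OLs turned positive for Tuba1b (0.23), Tubb2b (0.094), Tubb3 (0.13), Tubb5 (0.18) and Tppp (0.0086), that of Tubb2a in OPCs became 0.0047, and the stage estimate of Tubb2a became -0.15. None of these 7 had passed the threshold, and the scaling moved the median of all genes the same way.

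The labels do not say whether the replicate numbers of the titles pair the libraries, and the main fits used no pairing. Deviations of same-numbered libraries from their group means correlated at 0.014, 0.049 and -0.016 in OPCs and at 0.026, -0.239, -0.078 and -0.281 in OLs. With so few pairs, these values cannot show whether same-numbered libraries shared a culture. With the replicate block, no member was called in a knockout fit, and 3 estimates near 0 changed sign, Tubb2a (0.0049) and Map1b (0.037) in OPCs and Tuba1b (0.0073) in OLs. The block gave 2 called genes of all tested in OPCs, 5 in OLs and 11 in the interaction, against 9, 45 and 18 without it.

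Counts of called genes over all genes tested also moved with the tool and filter. DESeq2 called 139 in OPCs, 299 in OLs and 169 in the interaction, and with no filter edgeR called 101, 129 and 88. Library totals gave 74 in OLs. Leaving out 1 library gave 1 to 4 in OPCs, 7 to 636 in OLs, the highest without SRF-KO OL replicate 4, and 4 to 134 in the interaction, again the highest without it. Members called were 1 with DESeq2 in OLs and in the interaction, 1 with no filter in the interaction, and 0 to 1 with a library left out in both. The member was Tubb4a each time. The cause was not tested.

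With 1 library left out, the knockout estimates in OPCs ran from -0.0092 to 0.18 for Tuba1a, from -0.056 to 0.018 for Tubb2a, from -0.071 to 0.035 for Map1b and from -0.076 to 0.0067 for Stmn1. In OLs they ran from -0.16 to 0.13 for Tuba1b, from -0.28 to 0.0032 for Tubb3, from -0.26 to 0.028 for Tubb5 and from -0.099 to 0.22 for Stmn1. For the interaction they ran from -0.030 to 0.23 for Tuba1b, from -0.030 to 0.28 for Tubb3, from -0.090 to 0.16 for Tubb5, from -0.10 to 0.28 for Tppp and from -0.045 to 0.23 for Stmn1. The difference in Tubb4a share ran from -12.2 to -8.96 points for SRF-KO against control OLs and from 26.0 to 29.2 points for control OLs against control OPCs, each with an exact permutation p of 0.0571, the smallest that 3 against 4 allows. In OPCs the share difference gave an exact permutation p of 0.114 with Tubb2a and Tubb2b left out of the pool.

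With 3 or 4 libraries a group and adjustment over all genes, small differences could not be detected, and a p above the threshold does not show equal levels. Among the 10 members the lowest counts were those of Tppp in OPCs, 94 to 203 reads per library. OL counts include intron reads, and reads shared by near-identical tubulins were divided by RSEM.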
